A study of Mus musculus with 6 samples.

Results

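The p200 family, also called HIN200 or PYHIN, is a group of interferon-inducible genes that lie next to each other on mouse chromosome 1, and its expression and gene content are known to differ between inbred strains. The genes described here were those of the deposited count table on chromosome 1 whose first exon base lay between 173200000 and 174200000 and which were listed as AI607873, Mndal, Aim2, Pyhin1, Pydc3 or Pydc4, or under a name beginning with Ifi20 or Ifi21. This gave 9 of the 12579 genes in the table, namely Aim2, Pydc4, Pyhin1, Pydc3, AI607873, Ifi204, Mndal, Ifi203 and Ifi205 in order along the chromosome. All 9 passed the filter on low counts, and 0 genes with one of these names lay outside the interval. The genes were chosen by position and name, but selected on measured values too, since the counts of all 6 libraries and the contrast of the genotypes were known, so the values of these genes in that contrast are a description and support no statement about the genotype.

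RNA was sequenced from fetal liver at E14.5, a stage of fetal development, in 3 Prl2-/- and 3 Prl2+/+ samples, which the labels call haematopoietic stem and progenitor cells. Prl2 is the gene of the tyrosine phosphatase PRL2 and is listed as Ptp4a2. The labels give neither the mouse strain nor the kind of mutant allele, and they do not say that each library came from its own embryo, so any p-value reflects how far these samples vary, possibly for technical reasons. The title names transcription downstream of the receptor FLT3 as the question.

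Libraries held 29525301 to 37026282 counts in the Prl2-/- samples and 25965111 to 33613949 in the Prl2+/+ samples. Ptp4a2, on chromosome 4, averaged 1.18 CPM (counts scaled to a library of 1000000) in Prl2-/-, with an SD of 0.132, against 306 CPM in Prl2+/+, with an SD of 8.51 (n = 3 each), so all 6 libraries matched their labels. All 20 listed markers of haematopoietic stem and progenitor cells were measured, with a summed level of 15933 to 19255 CPM in Prl2-/- and 13732 to 17503 CPM in Prl2+/+. Most of that sum was Mpo, with 11690 to 13695 CPM in Prl2-/- and 9801 to 12770 CPM in Prl2+/+. Over the 6 libraries, Kit had 188 to 247 CPM and Mecom 0.135 to 0.683 CPM. Hepatoblast markers (17 genes) were present as well and spread widely within each genotype, with 78.9 to 2905 CPM in Prl2-/- and 184 to 5157 CPM in Prl2+/+. In bulk RNA such as this, fewer cells of a type and less RNA per cell cannot be told apart.

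Most proteins of the p200 family carry a pyrin domain, which binds other pyrin domains, and a HIN domain, which binds double-stranded DNA. AIM2 senses DNA in the cytosol and assembles an inflammasome with the adaptor PYCARD and caspase-1. Other members, such as p204 (Ifi204), act mostly in the nucleus, where they bind regulators of growth and differentiation including the retinoblastoma protein, and take part in DNA sensing upstream of STING. Type I interferon raises the transcription of many of these genes through transcription factors that bind interferon-stimulated response elements (ISRE), and macrophages are a well-known site of their expression.

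The table uses older names for 4 of the 9 genes. The RefSeq annotation of GRCm38.p6 lists Pydc4 as Ifi213, Pyhin1 as Ifi209, Pydc3 as Ifi208 and AI607873 as Ifi207. It holds 13 protein-coding genes and 1 pseudogene of the family in the interval. Of these, Ifi211 is in the table as Mnda, and a gene listed as BC094916 has the same first and last base as Ifi214. Neither name is in the rule, so both are given here as neighbours. Ifi206, Ifi202b and the pseudogene Ifi203-ps were not analysed here.

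In GRCm38 coordinates, the exons counted for the genes spanned the following stretches, all of protein-coding genes. Aim2 lay at chr1:173420604-173466036, plus strand. Pydc4 lay at chr1:173591957-173599274, minus strand. Pyhin1 lay at chr1:173630859-173647928, plus strand. Pydc3 lay at chr1:173673680-173698392, plus strand. AI607873 lay at chr1:173723428-173741809, minus strand. Ifi204 lay at chr1:173747294-173766919, minus strand. Mndal lay at chr1:173857220-173880187, minus strand. Ifi203 lay at chr1:173920401-173942672, minus strand. Ifi205 lay at chr1:174011998-174031755, minus strand.

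Sequence upstream of the genes was available from RefSeq (GRCm38.p6) for 8 of the 9, all but Ifi204, as windows of 250 bases before and 50 bases after a transcript start. Searched on both strands, the long form of the ISRE (GAAA, any 2 bases, then GAAACT) was in 0 of the 8 genes, and in 0.303% of all genes (0.271% of 32851 windows). Its core (GAAA, any 2 bases, then GAAA), which lies within the long form, was in 6 of the 8, namely Pydc4, Pydc3, AI607873, Mndal, Ifi203 and Ifi205. It was in 3.99% of all genes with a window (3.44% of all windows), and in 17 of 29 listed interferon-stimulated genes outside the cluster that had one. The following stretches of 30 bases show the core in capitals in these 6 genes, read 5′ to 3′ on the strand of the gene. They let the upstream sequences of these genes be compared. Whether the core goes with the levels of the genes was not tested.

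Pydc4, chr1:173599326-173599355, minus strand: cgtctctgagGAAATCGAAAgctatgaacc
Pydc3, chr1:173673597-173673626, plus strand: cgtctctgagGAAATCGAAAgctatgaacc
AI607873, chr1:173741831-173741860, minus strand: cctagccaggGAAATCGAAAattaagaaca
Mndal, chr1:173880204-173880233, minus strand: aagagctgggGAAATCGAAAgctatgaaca
Ifi203, chr1:173942508-173942537, minus strand: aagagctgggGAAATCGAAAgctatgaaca
Ifi205, chr1:174031870-174031899, minus strand: ccaggccaggGAAATTGAAAgctatgaaca

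The same 10 bases, GAAATCGAAA, stood in 5 of the 6 genes, 73 bases before the start in Pydc4, 58 in Pydc3, 41 in AI607873, 36 in Mndal and 35 in Ifi203. For Ifi203 this was a second annotated start, inside the counted span. The RefSeq genes of Pydc4 and Mndal reach to positions 173599348 and 173880382. Their cores thus lie upstream of the counted exons but inside the annotated genes. The window of the Ifi203 start at which the counted exons begin held no core. Pydc4 and Pydc3 shared all 30 bases, as did Mndal and Ifi203. In Ifi205 the core began 134 bases before the start and differed by C6T, with positions counted from 1 at the 5′ end of the 10 bases. These 10 bases, picked after the sequences were seen, occurred in 16 of the 32851 windows, from 16 genes, of which 7 belonged to the p200 family; Ifi206 and Ifi214 were the others besides the 5 members. Mndal also held a core match on the opposite strand in the window of a second annotated start, and Ifi205 one 23 bases after its start. A match is a description of the letters and not evidence of binding.

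The stretch upstream of AI607873, whose counts differed most between the genotypes relative to their spread, is shown beside those of Pyhin1 and Aim2, in which no core was found. Each holds the 100 bases before the start.

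AI607873, chr1:173741810-173741909, minus strand: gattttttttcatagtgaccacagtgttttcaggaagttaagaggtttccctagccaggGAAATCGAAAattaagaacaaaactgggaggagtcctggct
Pyhin1, chr1:173630759-173630858, plus strand: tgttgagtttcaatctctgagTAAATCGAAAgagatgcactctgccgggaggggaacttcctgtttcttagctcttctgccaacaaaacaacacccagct
Aim2, chr1:173420504-173420603, plus strand: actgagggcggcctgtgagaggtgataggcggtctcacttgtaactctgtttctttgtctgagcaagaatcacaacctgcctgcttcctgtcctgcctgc

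Capitals mark the core in AI607873 and, in Pyhin1, the stretch closest to the shared 10 bases, which begins 79 bases before the start and differs by G1T. In Aim2 the closest stretch of the whole window lay on the opposite strand and differed at A3C, T5A and C6A. With at most 1 difference allowed, 1.38% of all windows held the 10 bases.

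Levels were compared between genes as CPM per kilobase of exon. Ifi204 was the most abundant member at this scale, with 11.3 ± 4.41 CPM per kb in Prl2-/- and 22.3 ± 6.01 in Prl2+/+ (SD, n = 3 each), and it stood above Pyhin1 in 6 of 6 libraries. Pyhin1, AI607873 and Mndal came next, with 17.5 ± 5.41, 13.6 ± 1.40 and 12.7 ± 3.29 CPM per kb in Prl2+/+. Their order was not separable: Pyhin1 was above AI607873 in 3 of 6 libraries, and AI607873 above Mndal in 3 of 6. In Prl2-/- their means lay close together, with 8.34 ± 5.27 CPM per kb for Pyhin1, 8.38 ± 1.33 for AI607873 and 8.74 ± 2.10 for Mndal. Aim2 (5.85 ± 0.503 in Prl2-/-, 6.94 ± 0.718 in Prl2+/+) was below Mndal in 6 of 6 libraries, and above Ifi203 (4.17 ± 1.42 and 6.16 ± 1.46) in 4 of 6. Pydc3 (2.70 ± 2.35 and 5.43 ± 1.62) was above Ifi205 (2.59 ± 1.16 and 4.29 ± 1.33) in 4 of 6. Pydc4 was the least abundant in every library, with 0.792 ± 0.652 CPM per kb in Prl2-/- and 1.51 ± 0.871 in Prl2+/+. In Prl2-/- replicate 2, AI607873 held the highest level per kb and Ifi204 the third.

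The mean CPM of each of the 9 genes was lower in Prl2-/-; the log2 fold changes (Prl2-/- minus Prl2+/+) had a median of -0.73 and a range of -1.07 to -0.25, beside a median of -0.00067 over the 12576 genes tested. Estimates below 0 made up 50.2% of all genes tested. No member passed edgeR's quasi-likelihood test at a Benjamini-Hochberg adjusted p of 0.05 (0 of 9), where 0.0398% of all genes passed. At an unadjusted p under 0.05 there were 2 of 9 lower, AI607873 and Ifi204, against 2.62% of all genes. DESeq2 called 1 of 9 (0.286% of all genes), the edgeR likelihood ratio test 1 of 9 (0.167%) and limma-voom 0 of 9 (0.0318%); the called gene was AI607873 both times. In 3 of 9 genes, Aim2, AI607873 and Ifi204, every Prl2-/- library lay below every Prl2+/+ library, as it did in 5.07% of all genes. Nothing is read from these shares, since the contrast was known when the genes were chosen.

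**Figure D1:**
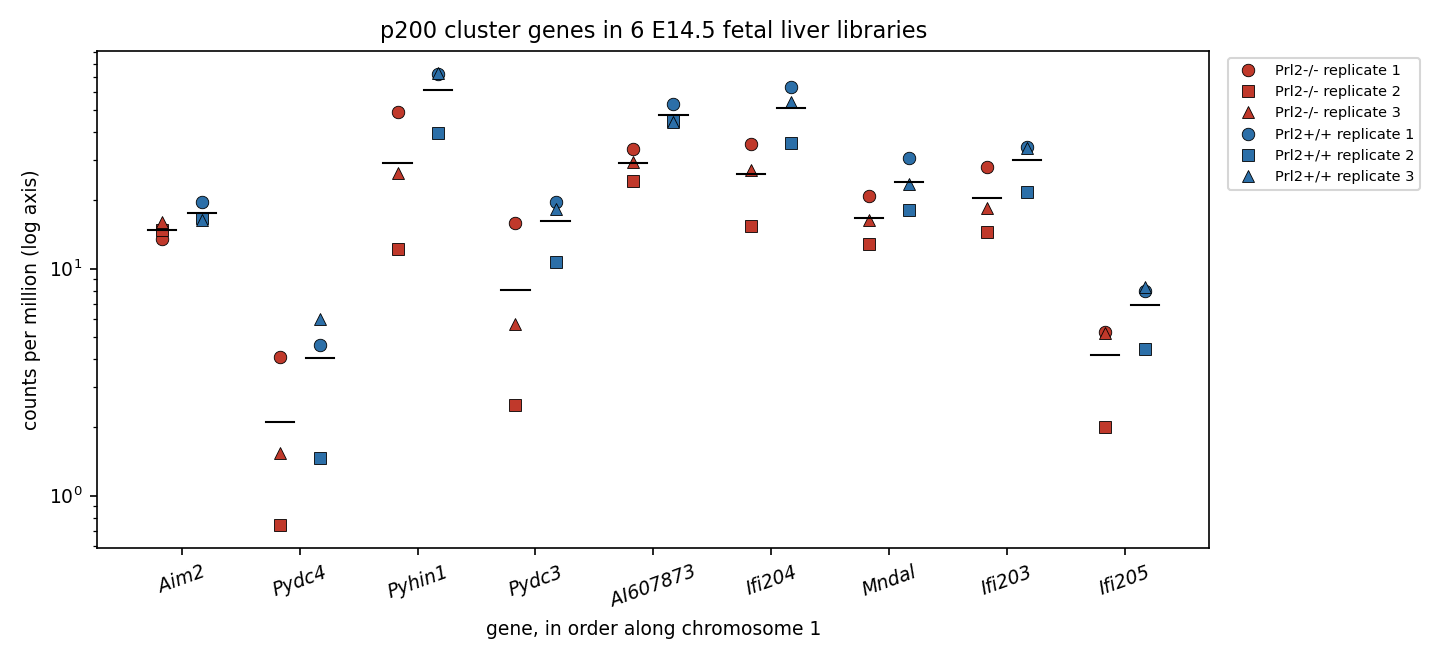
CPM of the 9 p200 cluster genes (log axis) in each library, with Prl2-/- in red left of Prl2+/+ in blue; symbols give the replicate number and black lines the group means. Prl2-/- replicate 2 was the lowest library for 8 of 9 genes, and Aim2 varied least within Prl2-/-, between 13.6 and 16.1 CPM.

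Among the genes for nuclear proteins of the family, AI607873 was the one whose groups stood furthest apart for their spread. It had 33.7, 24.4 and 29.5 CPM in Prl2-/- replicates 1 to 3, against 53.1, 44.9 and 44.4 CPM in Prl2+/+ replicates 1 to 3. The highest Prl2-/- library was below the lowest Prl2+/+ library. Its log2 fold change of -0.70 had an SE of 0.134, and its 95% confidence interval was -1.02 to -0.38. The gene ranked 22 by p among the 12576 genes, with an edgeR adjusted p of 0.778; over the 12 alternatives tried, its adjusted p ran between 0.00326 with DESeq2 and 0.999. Its level varied 1.38-fold within Prl2-/- and 1.20-fold within Prl2+/+.

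Ifi204 encodes p204, which binds the retinoblastoma protein and takes part in the differentiation of myeloid cells. It had 35.5, 15.3 and 27.2 CPM in Prl2-/-, against 62.9, 35.9 and 54.4 CPM in Prl2+/+. The groups did not overlap, but Prl2-/- replicate 1 and Prl2+/+ replicate 2 were almost level. The log2 fold change was -0.97 ± 0.329 (SE; 95% interval -1.76 to -0.18).

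Pyhin1 shares its name with the human gene of IFIX, a nuclear protein that has been described as a growth suppressor. It had 48.8, 12.2 and 26.5 CPM in Prl2-/-, against 71.8, 39.4 and 72.5 CPM in Prl2+/+. Prl2-/- replicate 1 lay within the Prl2+/+ range and replicates 2 and 3 below it. The log2 fold change of -1.07 was the largest in size among the 9 genes, with an SE of 0.487 and a 95% interval of -2.23 to 0.095.

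Mndal and Ifi203 are family members on the minus strand, on either side of Mnda, with the same 30 bases around the core. Mndal had 20.8, 12.8 and 16.4 CPM in Prl2-/-, against 30.6, 18.1 and 23.7 CPM in Prl2+/+, a log2 fold change of -0.53 ± 0.241 (SE). Ifi203 had 28.0, 14.54 and 18.6 CPM in Prl2-/-, against 34.4, 21.9 and 34.1 CPM in Prl2+/+, a log2 fold change of -0.56 ± 0.278 (SE). In both genes Prl2-/- replicate 1 lay within the Prl2+/+ range and the other 2 Prl2-/- libraries below it.

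Ifi205, also known as D3, is the member at the distal end of the cluster. It had 5.29, 2.02 and 5.22 CPM in Prl2-/-, against 8.01, 4.45 and 8.31 CPM in Prl2+/+, a log2 fold change of -0.73 ± 0.422 (SE). Only Prl2-/- replicate 2 was below the Prl2+/+ range.

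Pydc3 and Pydc4 encode proteins with a pyrin domain. Pydc3 had 16.0, 2.52 and 5.71 CPM in Prl2-/-, against 19.6, 10.7 and 18.4 CPM in Prl2+/+, a log2 fold change of -1.004 ± 0.628 (SE). Pydc4 had 4.08, 0.739 and 1.54 CPM in Prl2-/-, or 146, 22 and 57 counts, against 4.63, 1.47 and 6.03 CPM in Prl2+/+, or 122, 49 and 156 counts, and its log2 fold change was -0.92 ± 0.727 (SE). These were the most variable members within Prl2-/-: the highest library held 6.34 times the lowest for Pydc3 and 5.53 times for Pydc4. In both, Prl2-/- replicate 1 was within the Prl2+/+ range.

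Aim2, the inflammasome sensor, had another order of libraries than the other 8 genes, a difference that was not tested. It had 13.6, 14.8 and 16.1 CPM in Prl2-/-, against 19.7, 16.7 and 16.4 CPM in Prl2+/+. The groups did not overlap, by a margin of 16.1 against 16.4 CPM, and the lowest library was Prl2-/- replicate 1, not replicate 2. The log2 fold change was -0.25 ± 0.120 (SE; 95% interval -0.53 to 0.040). Its log2 level had an SD of 0.12 within Prl2-/-, and 54.9% of all genes had a larger one.

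**Figure D2:**
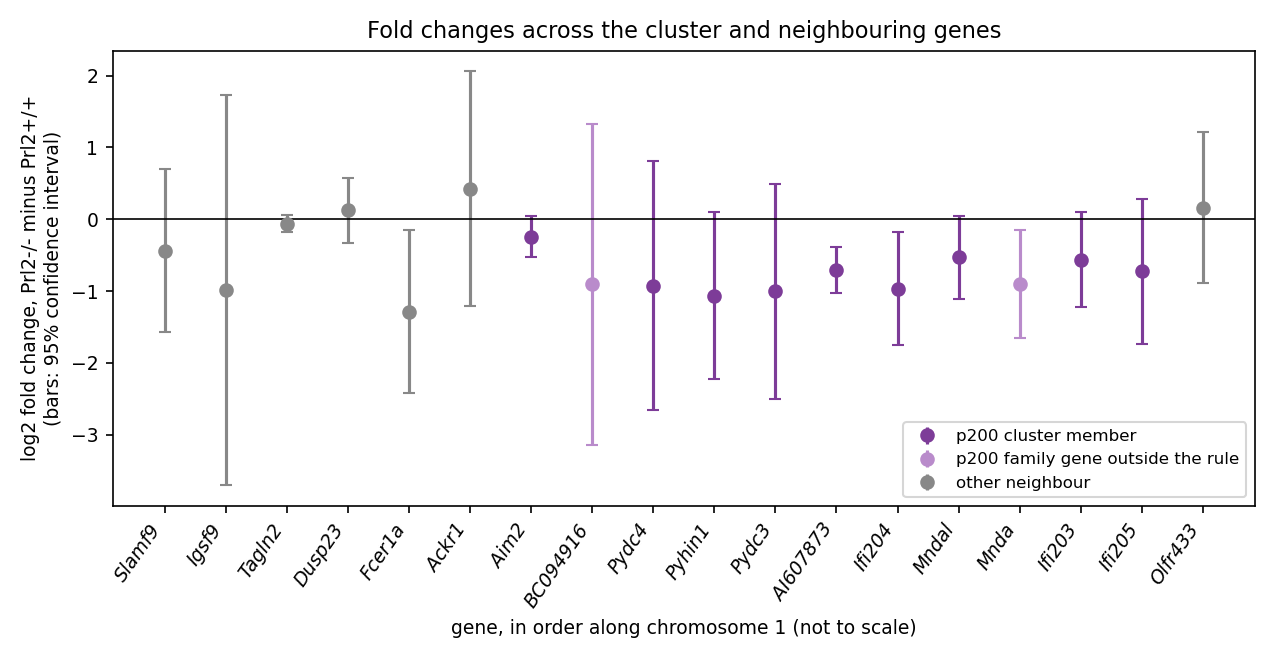
Log2 fold changes (Prl2-/- minus Prl2+/+, vertical axis) with 95% confidence intervals for the 9 members, the other p200 family genes in the table and further neighbours within 1 Mb, in order along chromosome 1. The estimates of the family genes ran from -1.07 to -0.25, while those of the nearest genes on either side, Ackr1 and Olfr433, were above 0 with intervals that include 0, and that of Fcer1a was -1.29.

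The libraries of a genotype differed widely in the cluster, and they did so together. Prl2-/- replicate 2 was the lowest of the 6 libraries for 8 of 9 members, where it was the lowest for 14.2% of all genes. Relative to the Prl2+/+ mean, that library held 15.5% of the CPM of Pydc3, 18.3% of Pydc4, 19.96% of Pyhin1, 29.1% of Ifi205 and 30.1% of Ifi204. It held 48.3% of Ifi203, 51.4% of AI607873, 53.2% of Mndal and 84.3% of Aim2. Prl2-/- replicate 1, in contrast, was within the Prl2+/+ range for 6 of 9 members, and replicate 3 was below it for 7 of 9. Within Prl2+/+, replicate 2 was the lowest library for 7 of 9 members, the exceptions being Aim2 and AI607873, in which replicate 3 was lowest. The median SD of log2 CPM over the 9 genes was 0.62 in Prl2-/- and 0.42 in Prl2+/+, beside 0.14 and 0.13 over all genes.

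The summed level of the cluster was 206, 99.5 and 147 CPM in Prl2-/- replicates 1 to 3, against 305, 193 and 278 CPM in Prl2+/+ replicates 1 to 3. Prl2-/- replicate 1 was above Prl2+/+ replicate 2, so the groups overlapped. The means were 151 ± 53.2 CPM for Prl2-/- and 259 ± 58.1 CPM for Prl2+/+ (SD over 3 libraries each), a log2 ratio of -0.78. Some members share sequence with each other or with family genes outside the sum. Among 50-base windows of the annotated transcripts, 33.7% of those of Pyhin1 also occurred in another gene, nearly all of them in Ifi214, and 20.8% of those of Pydc3, most of them in Ifi213, the gene listed as Pydc4. The share was 20.02% for Ifi204, 19.6% for Mndal, 18.6% for Ifi205, 15.6% for Pydc4 and 12.2% for Ifi203. It was lowest for AI607873 at 7.29% and Aim2 at 0.628%. With 100-base windows the share was lower for every member, at 16.9% for Pyhin1, 15.04% for Ifi205 and 5.92% for Pydc3. Counts of the members with high shares are uncertain to a degree that these shares do not give, since the handling of reads that fit several genes is not given in the sources used here.

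As a description of likeness over these 6 libraries, which share the genotype groups, Pearson's r of log2 CPM was computed for the 36 pairs of members. The median r was 0.90. The closest pair was Pyhin1 and Pydc3 (r = 0.99), and the least alike was Aim2 and Pydc4 (r = 0.27). All 8 pairs with Aim2 had r between 0.27 and 0.72, and the lowest r among the other pairs was 0.70. Among genes that are not members, those whose log2 CPM followed the summed members most closely were Ifit2, Mnda, Gbp5, Sp100 and Ifit1bl1 (r between 0.989 and 0.995), on chromosomes 19, 1, 3, 1 and 19. Mnda is itself a p200 family gene inside the cluster. Pyhin1 had the highest mean log2 CPM over the 6 libraries, although AI607873 was above it in CPM in Prl2-/- replicates 2 and 3 and Prl2+/+ replicate 2. The genes closest to Pyhin1 were Sp100, Ifit1bl1, Phf11b, Ddx60 and Il18bp (r between 0.993 and 0.998). Ifit2 had 31.1, 11.2 and 17.8 CPM in Prl2-/-, against 55.2, 26.1 and 52.3 CPM in Prl2+/+. Its product binds RNA and is a classical response protein to interferon. Its libraries stood in the same order as the summed cluster, which adds little to the r by which the gene was picked.

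Interferon-stimulated genes outside the cluster had the same order of genotypes on average. Of 40 listed, 38 were measured, and 38 of 38 estimates were negative (median -0.75), as were 50.2% of those of all genes. The hepatoblast markers, which spread widely within each genotype, also had 17 of 17 estimates below 0 (median -1.16). In edgeR over all genes, 0 of 38 passed. At an unadjusted edgeR p under 0.05 there were 7 of 38, all lower, against 2.62% of all genes lower. DESeq2, the likelihood ratio test and limma-voom called 0 of 38. Nothing is read from these shares, since the list was chosen with earlier results known. Eif2ak2, the gene of the RNA-activated kinase PKR, was at -0.74 ± 0.186 (SE), the 2-5A synthetase-like gene Oasl2 at -1.08 ± 0.361, Ifit2 at -1.15 ± 0.424 and Rsad2, the gene of viperin, at -0.95 ± 0.349. The mean log2 CPM of the 38 genes was 5.33, 3.56 and 4.05 in Prl2-/- replicates 1 to 3, against 5.56, 4.80 and 5.40 in Prl2+/+ replicates 1 to 3. Prl2-/- replicate 2 was the lowest library for 33 of the 38, as it was for 8 of 9 cluster members. Prl2-/- replicate 1 had a mean level of these 38 transcripts inside the Prl2+/+ range, and its summed cluster level of 206 CPM was near the lower end of that range.

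**Figure D3:**
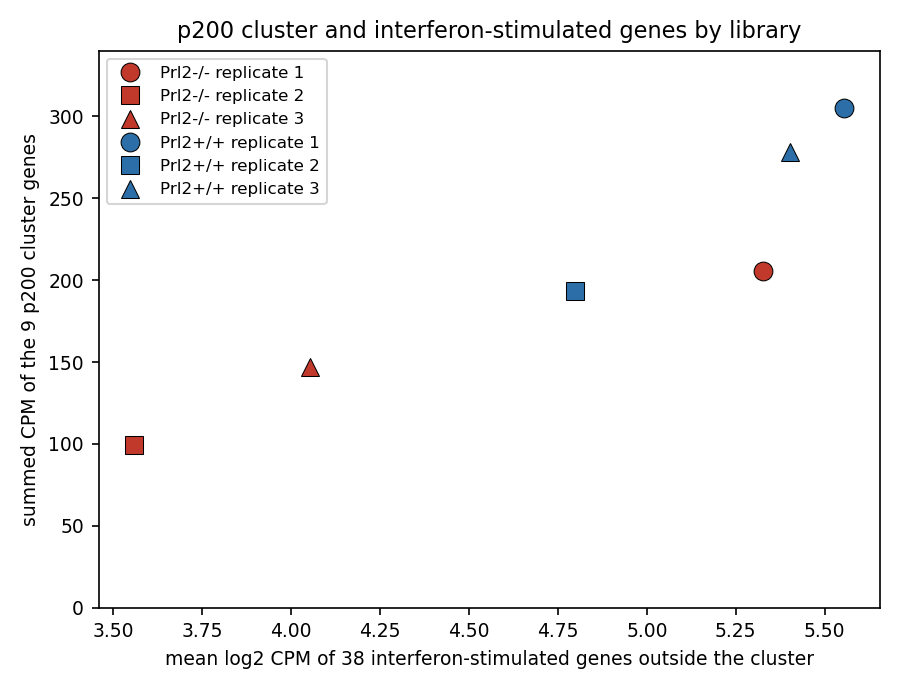
Summed CPM of the 9 cluster genes (vertical axis) against the mean log2 CPM of 38 interferon-stimulated genes outside the cluster (horizontal axis), 1 point per library. Prl2-/- replicate 2 is lowest on both axes (99.5 CPM and 3.56) and Prl2+/+ replicate 1 highest on both (305 CPM and 5.56).

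The receptors and transducers of interferon were less uniform. All 14 listed genes were measured, with 9 estimates below 0, 5 above and a median log2 fold change of -0.09. In edgeR 0 of 14 passed, and 1, Stat2, was lower at an unadjusted p under 0.05, against 2.62% of all genes. Stat2 was at -0.68 ± 0.197 (SE), with 30.4, 18.4 and 23.0 CPM in Prl2-/-, against 44.9, 35.98 and 34.2 CPM in Prl2+/+, so that its groups did not overlap. The receptor chain gene Ifnar1, at -0.13 ± 0.0779, and the transcription factor gene Irf3, at 0.12 ± 0.0755, lay close to 0.

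Genes that act with the cluster in sensing DNA showed estimates on both sides of 0. Of 17 measured genes of the cGAS and STING pathway, 8 were below 0 and 9 above, with a median of 0.0037, and 0 of 17 passed. At an unadjusted edgeR p under 0.05 there were 3, Mb21d1 and Samhd1 lower and Rnaseh2a higher. Over all genes, 2.62% were lower at that p. Mb21d1, the gene of cGAS, had 21.2, 15.95 and 19.7 CPM in Prl2-/-, against 28.6, 22.3 and 29.2 CPM in Prl2+/+, a log2 fold change of -0.49 ± 0.151 (SE). Its groups did not overlap. The dNTP hydrolase gene Samhd1 was at -0.33 ± 0.135, the kinase gene Tbk1 at -0.17 ± 0.0891 and Rnaseh2a at 0.16 ± 0.0661. Of 13 genes of the AIM2 inflammasome and pyroptosis, 9 were below 0 and 4 above, with a median of -0.06 and a range of -0.33 to 0.18, and 0 of 13 passed (0 at an unadjusted p under 0.05). Of 14 partners and targets in growth control, 10 were below 0 and 4 above, with a median of -0.03, and 0 of 14 passed. At an unadjusted edgeR p under 0.05, 1 gene was lower, against 2.62% of all genes. That gene was Mdm2, the gene of the ligase that degrades p53, at -0.25 ± 0.0890 (SE), with 73.9, 87.6 and 86.3 CPM in Prl2-/-, against 102, 90.7 and 101 CPM in Prl2+/+. Rb1, the gene of the retinoblastoma protein, was at -0.14 ± 0.109. Samhd1 is also among the interferon-stimulated genes and Irf3 among the signalling genes, so these lists are not independent. DESeq2, the likelihood ratio test and limma-voom called 0 genes of these lists as well.

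Measured neighbours on chromosome 1 were compared to see whether they shared the values of the members. The other family genes stood lower in Prl2-/- as the members did. Mnda, between Mndal and Ifi203, had 14.6, 6.45 and 8.87 CPM in Prl2-/-, against 22.2, 14.3 and 19.6 CPM in Prl2+/+, a log2 fold change of -0.90 ± 0.317 (SE). Prl2-/- replicate 1 just exceeded Prl2+/+ replicate 2. BC094916, between Aim2 and Pydc4, had 32, 1 and 12 counts in Prl2-/-, against 23, 11 and 31 counts in Prl2+/+, too few for more than its estimate of -0.91 ± 0.935. On the proximal side the nearest gene was Ackr1, the atypical chemokine receptor of red cells and venules, at 0.42 ± 0.685. Its counts were low too, with 25, 55 and 30 in Prl2-/- and 21, 48 and 6 in Prl2+/+. Fcer1a, which encodes a chain of the high-affinity IgE receptor and lies on the far side of Ackr1, had 6, 16 and 16 counts in Prl2-/-, against 24, 35 and 21 counts in Prl2+/+. Its CPM did not overlap between the genotypes, and its log2 fold change of -1.29 ± 0.473 (SE) was larger in size than that of any member, with an edgeR adjusted p of 0.899. On the distal side the nearest gene was Olfr433, an olfactory receptor gene, at 0.16 ± 0.440, with 69, 68 and 37 counts in Prl2-/- and 36, 76 and 26 in Prl2+/+. With so few counts, Ackr1 and Olfr433 say little about whether flanking genes shared the values of the members.

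Markers of other cell types moved between libraries too, and their part in the differences of the cluster was not tested. Erythroid markers (13 measured) were highest in Prl2-/- replicate 2 for 12 of 13, with a summed level of 658 to 1605 CPM in Prl2-/- and 671 to 1262 CPM in Prl2+/+. B cell markers were lowest in that library for 12 of 12, with 75.9 to 436 CPM in Prl2-/- and 114 to 349 CPM in Prl2+/+. Macrophage and monocyte markers, the cells in which the family is best known, were lowest in it for 5 of 15, with 3373 to 5882 CPM in Prl2-/- and 4042 to 5011 CPM in Prl2+/+, and their median log2 fold change was 0.02. Most of their sum was Lyz2, with 2344 to 4852 CPM in Prl2-/- and 3021 to 3962 CPM in Prl2+/+. The mean log2 CPM of these 15 markers was 4.99, 4.76 and 4.69 in Prl2-/- replicates 1 to 3, against 5.07, 4.77 and 4.48 in Prl2+/+ replicates 1 to 3. Plasmacytoid dendritic cell markers (7 measured) summed to 140 to 312 CPM in Prl2-/- and 185 to 239 CPM in Prl2+/+. Neutrophil markers (10 measured) summed to 9653 to 17614 CPM in Prl2-/- and 12426 to 13886 CPM in Prl2+/+, and endothelial markers (4 measured) to 93.9 to 117 CPM and 95.8 to 110 CPM. The genotype ranges overlapped in each of these lists, and 0 of their genes passed in edgeR.

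The size of the estimates depended on single libraries, while their sign did not. Without Prl2-/- replicate 2, the log2 fold change was -0.58 for Pydc3, -0.52 for Pydc4, -0.70 for Pyhin1, -0.70 for Ifi204 and -0.40 for Ifi205. Without Prl2-/- replicate 1, the corresponding values were -1.97, -1.81, -1.66, -1.26 and -0.93. AI607873 moved less, between -0.82 and -0.59 over the 6 omissions, and Aim2 between -0.31 and -0.16. Ifi203 ran between -0.86 and -0.37 and Mndal between -0.72 and -0.32. The summed cluster ran between -1.07 and -0.55.

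**Figure D4:**
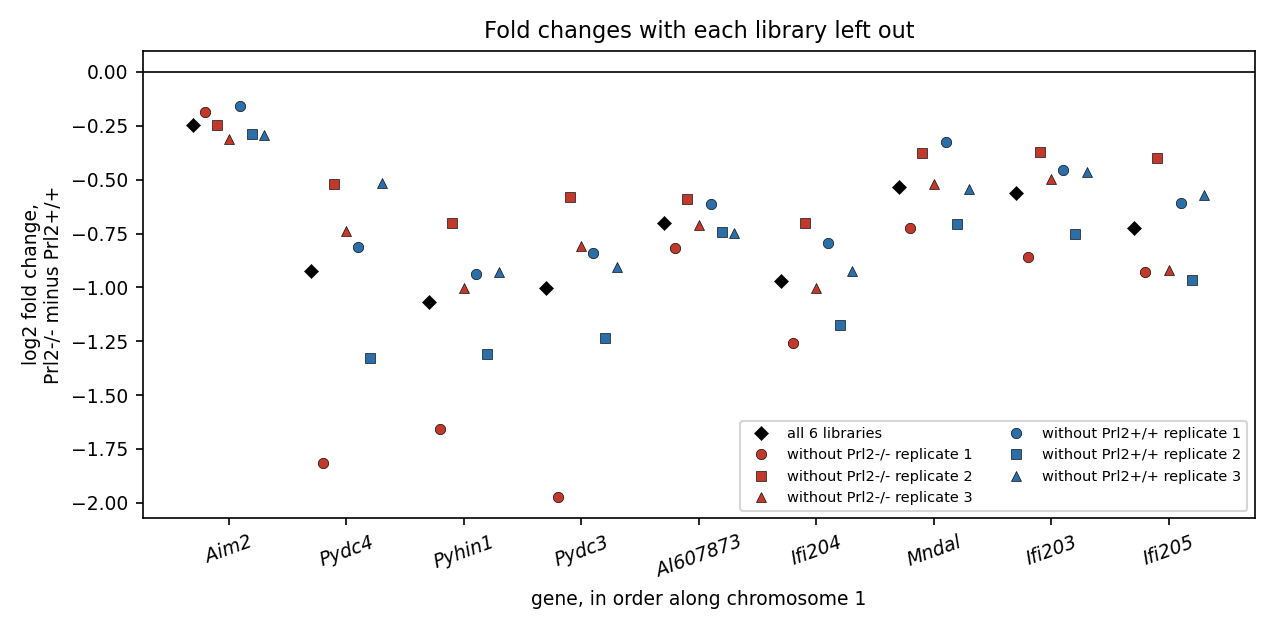
Log2 fold changes (Prl2-/- minus Prl2+/+, vertical axis) of the 9 genes with all 6 libraries (black diamonds) and with each Prl2-/- (red) or Prl2+/+ (blue) library left out. Every estimate is below 0, and leaving out Prl2-/- replicate 1 moves Pydc3 to -1.97 and leaving out Prl2-/- replicate 2 moves it to -0.58.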

How the data were processed

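RNA from 3 Prl2-/- and 3 Prl2+/+ fetal liver samples was amplified with a template-switching kit and tagmented, which does not mark strand, per the labels' protocols. The authors deposited raw counts per gene, per the file headers; STAR and featureCounts are named in the submitters' processing notes, without versions. The build is not given in the sources used here; 12126 of 12135 symbols shared with GENCODE M21 (GRCm38) overlapped its positions, so GRCm38 positions are given. Every gene had at least 0.231 CPM in 3 libraries, which leaves the rarest transcripts unmeasured.

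Counts were filtered with filterByExpr (12576 genes kept) and scaled by TMM (0.991 to 1.01); edgeR 4.0.16 in R 4.3.3 gave the quasi-likelihood test, Prl2-/- against Prl2+/+, without covariates, adjusted by Benjamini-Hochberg over all genes. SE is the fold change over the square root of F; 95% intervals use the t distribution. Log2 CPM used a prior count of 2. The workflow was tested on simulated counts. No pair of libraries agreed within sampling noise (chi-square per gene at least 19.7). Alternatives used DESeq2 1.42.0, limma 3.58.1, other scaling and filters, a replicate block and single libraries left out.

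Members and lists were chosen with earlier results of these data known. Named are all members, Ptp4a2, the nearest neighbours, up to 4 genes of smallest p per pathway list, and the 5 genes most like the summed members and the 5 most like the member of highest mean log2 CPM; genes named beyond this were chosen after their values were seen. Sequences and names came from RefSeq GRCm38.p6; all 9 members matched a name. Some genes of the lists and neighbourhood and 1 motif are not reported here.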

Additional observations from a re-analysis of the deposited data

How the results depend on the processing

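All 108 values of the 9 members under 12 alternatives were below 0. The alternatives draw on the same 6 libraries, for members chosen with this contrast known, so the shared sign is no separate support. Of the 108 values, 2 passed the threshold, both AI607873 (adjusted p of 0.00326 in DESeq2, 0.0246 by edgeR's likelihood ratio test). Thus 1 member was called with each of those tools and 0 under the other 10 alternatives. Over all genes, 5 were called, against 36 with DESeq2, 21 with the likelihood ratio test and 3 to 4 with 1 library left out. The replicate number as a block gave 1. Whether equal numbers mark pairs was not settled. Over all genes, the deviations of same-numbered libraries correlated at -0.64, 0.21 and 0.17, and those of differently numbered libraries between -0.81 and 0.74. In the cluster, the SE was smaller with the block for every member but Aim2. It went from 0.329 to 0.103 for Ifi204 and from 0.120 to 0.146 for Aim2. The block gave a median of -0.80 over the members. That median ran between -0.97 and -0.52 over the 6 omissions and that of interferon-stimulated genes, an alternative added after seeing the data, between -1.31 and -0.50. The search for the core motif in place of the long form gave 6 genes against 0. Changes of test apply only to fitted genes, so the summed cluster was recomputed only with DESeq2 size factors, the block and single omissions. With 3 libraries per genotype and a spread as wide as that of Pydc3 or Pydc4, small differences were not detectable.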
